A study of Mus musculus with 10 samples.

Results

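Scavenger receptors are surface and lysosomal membrane proteins that bind modified lipoproteins, microbes, dying cells and matrix fragments, and the RNA of 10 of them was followed here across mouse endothelial cells. The 10 genes (Marco, Msr1, Scara3, Scara5 and Colec12 of class A, Scarb1 and Scarb2 of class B, Scarf1 of class F, Stab1 and Stab2 of class H) were chosen by symbol from the 23284 gene symbols of the count table, and all 10 passed the filter on low values. RNA was sequenced from 3 populations: lymph node lymphatic endothelium (LN-LEC) in 4 libraries, lymph node blood endothelium (LN-BEC) in 3, and diaphragm lymphatic endothelium (D-LEC) in 3. All libraries came from wild-type C57BL/6 (B6) mice at an age of 6 to 8 weeks, without treatment. Each lymph node sample combined peripheral with mesenteric nodes. In nodes and diaphragm alike, CD45-negative, CD31-positive cells were sorted, with PDPN marking LEC and its absence marking BEC. Each library is a pool of several mice, so the spread between libraries is a spread between pools. In such bulk samples, fewer cells that express a gene and less RNA of it per cell cannot be told apart.

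The classes differ in structure and in what they are known for. Class A receptors carry a collagen-like stalk and bind polyanionic ligands such as oxidized lipoproteins and bacterial surfaces, and Marco and Msr1 are best known from macrophages. Class B receptors span the membrane at both ends of a large loop and handle lipoproteins and lysosomal enzymes, while the stabilins of class H are very large clearance receptors of sinusoidal endothelium that take up hyaluronan, modified lipoproteins and dying cells. Lymphatic sinuses of the node receive lymph with particles, microbes and cell debris, and the lymphatics of the diaphragm drain the peritoneal cavity.

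Levels are given as FPKM, here the fragments counted on a gene for each 1 kb of its exons and each 1000000 fragments of the TMM-scaled library total, so that genes of different length can be set side by side. Differences between populations are log2 fold changes with their standard errors (SE) from edgeR, and a difference was called when the p-value adjusted over 15328 tested genes was below 0.05. The genes lie on 7 chromosomes of mm9. Marco (chr1:122371115-122401661), Msr1 (chr8:40667054-40728032), Stab2 (chr10:86303955-86470687), Stab1 (chr14:31952203-31981827), Scarb1 (chr5:125757457-125821464) and Scarb2 (chr5:92872899-92934634) lie on the minus strand. Scarf1 (chr11:75327043-75340082) lies on the plus strand, as does Colec12. Scara5 (chr14:66285240-66383663, plus strand) and Scara3 (chr14:66538232-66572581, minus strand) lie 154568 bases apart with 3 genes between them. Stab1 and Stab2 are built alike, with 69 exons each and 7995 and 8133 exon bases. Stab1 shares 108 of its exon bases with the neighbouring gene Nt5dc2, so fragments in those bases cannot be assigned to either gene.

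The sequence before the start of a gene is shown for the 5 members that led a population, namely Marco, Stab2 and Msr1, the most abundant members of LN-LEC, Stab1, the most abundant of D-LEC, and Scarb1, the most abundant of LN-BEC. Each run holds the 250 bases before the start in the mm9 gene annotation, 5′ to 3′ on the strand of the gene, and contains no transcribed base of that gene model. Capitals mark matches, on either strand, to the 8 motifs that were searched.
Marco (mm9 chr1:122401662-122401911, minus strand): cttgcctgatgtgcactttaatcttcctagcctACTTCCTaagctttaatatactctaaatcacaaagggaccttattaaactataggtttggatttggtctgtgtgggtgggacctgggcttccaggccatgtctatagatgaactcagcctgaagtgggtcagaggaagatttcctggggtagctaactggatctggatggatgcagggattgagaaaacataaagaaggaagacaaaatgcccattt
Msr1 (mm9 chr8:40728033-40728282, minus strand): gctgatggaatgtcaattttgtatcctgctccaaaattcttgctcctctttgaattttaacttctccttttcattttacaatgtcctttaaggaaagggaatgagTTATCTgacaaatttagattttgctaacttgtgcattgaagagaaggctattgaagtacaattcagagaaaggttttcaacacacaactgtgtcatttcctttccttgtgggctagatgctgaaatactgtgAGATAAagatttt
Stab2 (mm9 chr10:86470688-86470937, minus strand): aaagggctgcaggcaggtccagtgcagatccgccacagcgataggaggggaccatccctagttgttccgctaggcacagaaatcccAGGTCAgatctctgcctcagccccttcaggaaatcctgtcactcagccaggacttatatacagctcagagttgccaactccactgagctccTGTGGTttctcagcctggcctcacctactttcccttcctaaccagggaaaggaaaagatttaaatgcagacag
Stab1 (mm9 chr14:31981828-31982077, minus strand): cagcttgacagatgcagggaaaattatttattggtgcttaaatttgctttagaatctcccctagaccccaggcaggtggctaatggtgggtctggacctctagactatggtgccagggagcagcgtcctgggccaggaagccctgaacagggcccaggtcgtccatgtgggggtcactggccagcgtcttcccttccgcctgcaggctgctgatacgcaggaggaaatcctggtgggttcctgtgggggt
Scarb1 (mm9 chr5:125821465-125821714, minus strand): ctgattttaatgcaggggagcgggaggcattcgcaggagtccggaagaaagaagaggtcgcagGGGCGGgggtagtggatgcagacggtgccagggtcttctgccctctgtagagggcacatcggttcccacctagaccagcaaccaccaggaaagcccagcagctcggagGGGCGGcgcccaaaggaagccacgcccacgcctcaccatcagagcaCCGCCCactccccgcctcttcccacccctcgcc

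The 3 leading members of LN-LEC had no searched motif in common in these windows. The PU.1-type motif AGGAAGT stood 217 bases before the start of Marco, and it occurred in 7.49% of all 23099 promoters of this length and also before Scara3. The GATA-type motif AGATAA stood 145 and 13 bases before the start of Msr1 and occurred in 8.95% of promoters. The window of Stab2 held the nuclear receptor element AGGTCA, present in 12.2% of promoters, and the RUNX-type motif TGTGGT, also present in 12.2%. The window of Scarb1 held the GC box GGGCGG 3 times, a motif that 42.7% of promoters contain and that also stood before Scarb2, Scarf1, Scara3 and Colec12. The AP-1-type motif TGANTCA (6.12% of promoters), the MAF-type element TGCTGAC (3.42%) and TATAAA (2780 of 23099 promoters) were in none of the 10 windows. In base composition the windows of Msr1 and Marco held 34.8% and 43.6% G and C, below the median of 55.6% over all promoters, Stab2 and Stab1 held 53.2% and 57.2%, and Scarb1 held 64.8%. None of these motifs overlapped another in the sequences shown, and a match describes the letters only.

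The libraries held 22429940 to 48906070 counted fragments, and 3 counts corresponded to 0.0613 to 0.134 CPM (counts scaled to 1000000 per library). The 6 LEC marker genes (Lyve1, Pdpn, Prox1, Reln, Flt4, Mmrn1) summed to 1477 to 1691 FPKM in LN-LEC, 5452 to 5801 in D-LEC and 26.3 to 103 in LN-BEC. LN-BEC replicate 3 stood apart in these genes: relative to the LN-LEC mean, the 6 markers were at 4.25% to 16.4% in it, with a median of 5.99%, against medians of 2.51% in replicate 1 and 1.04% in replicate 2. Its values are therefore named separately for the members, and their comparisons were repeated without it. The 14 macrophage markers summed to 16.4 to 23.4 FPKM in LN-LEC, 15.9 to 17.2 for LN-BEC and 13.8 to 17.1 for D-LEC. Among them, Emr1 (F4/80) reached at most 0.0716 FPKM, Siglec1 at most 0.0672, with 0 counts in every LN-BEC library, and Csf1r at most 0.612. Skeletal muscle markers (10 genes) summed to 30.2 to 50.8 FPKM in D-LEC, against at most 0.425 in LN-LEC and 1.12 in LN-BEC. Markers of fibroblasts and mural cells (10 genes) summed to 114 to 193 FPKM in LN-LEC, 115 to 206 for LN-BEC and 40.1 to 107 for D-LEC. Markers of other leukocytes (12 genes) summed to 2.79 to 18.4, 20.3 to 33.5 and 0.357 to 1.62 FPKM in the same order.

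Among the 10 members, each endothelial population had its own leading scavenger receptor. Marco made up 48.3% ± 6.98 (SD, n = 4) of the summed FPKM of the 10 receptors in LN-LEC, followed by Stab2 with 21.2% ± 3.82 and Msr1 with 15.99% ± 2.48. In LN-BEC the leading gene was Scarb1 with 71.3% ± 6.58 (n = 3), and Scarf1 followed with 10.6% ± 1.18. In D-LEC Stab1 alone made up 77.7% ± 2.24 (n = 3), followed by Scarf1 with 10.7% ± 1.16 and Colec12 with 6.63% ± 1.24. The 10 genes summed to 871 ± 148 FPKM in LN-LEC, 249 ± 17.2 for LN-BEC and 181 ± 13.1 for D-LEC. The lowest LN-LEC library lay above every library of the other populations. The ranking covers these 10 genes only. Cd36, a scavenger receptor outside them, was above Scarb1 in LN-BEC, at 366 against 177 FPKM, or 291 against 180 without replicate 3. In LN-LEC it was at 257 FPKM, between Marco at 428 and Stab2 at 181.

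**Figure D1:**
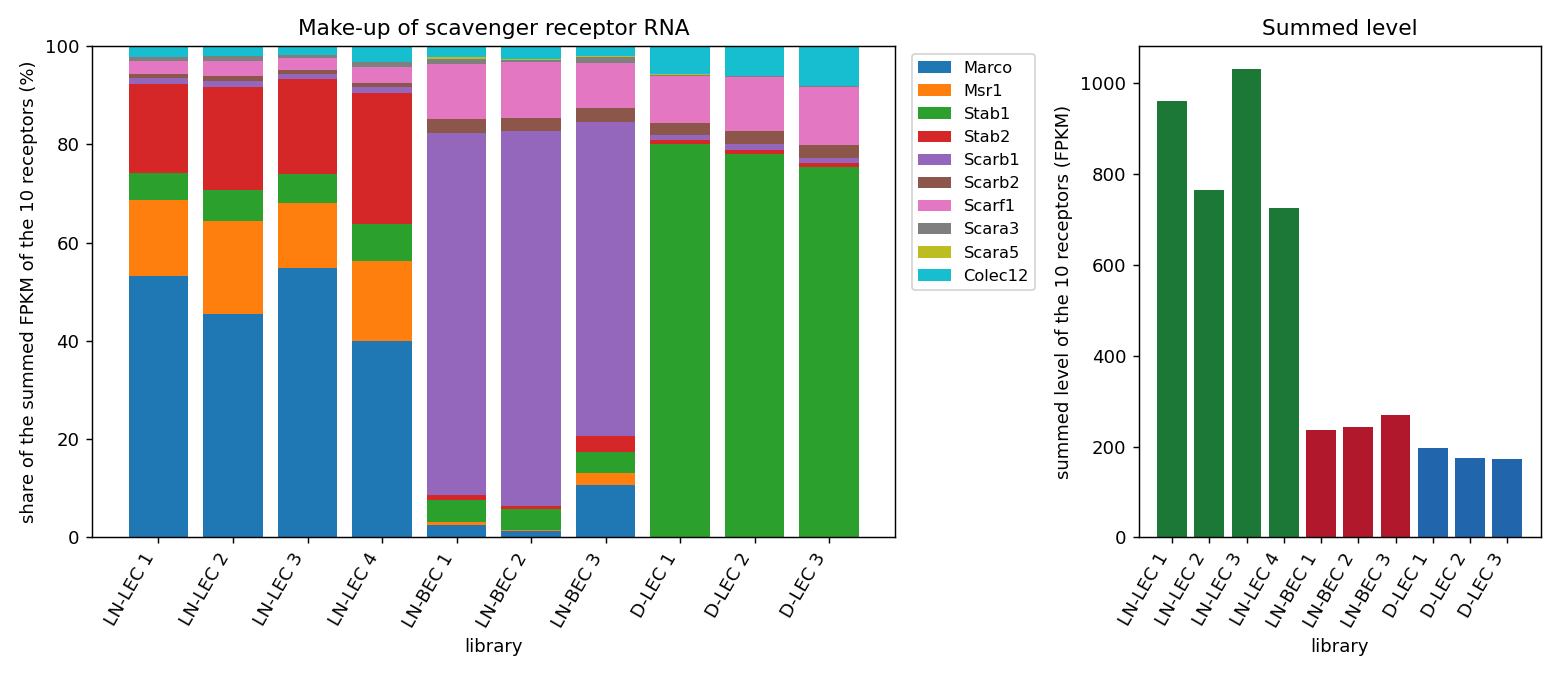
Left, the share (%) of each of the 10 receptors in their summed FPKM, per library; right, that sum in FPKM per library, with LN-LEC in green, LN-BEC in red and D-LEC in blue. Marco, Stab2 and Msr1 fill most of each LN-LEC bar, Scarb1 fills 63.9% to 76.4% of the LN-BEC bars and Stab1 75.4% to 79.8% of the D-LEC bars.

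Most members differed between any 2 populations, at larger folds than the typical gene. The members were chosen with earlier results of these data known, so this excess is described and was not tested. Of the 10, 7 were called between LN-LEC and LN-BEC (6 higher in LN-LEC, 1 higher in LN-BEC), against 38.2% of all genes tested in either direction, 19.8% and 18.4% in these. Between LN-LEC and D-LEC 9 were called (8 higher in LN-LEC, 1 higher in D-LEC), against 45.8% of all genes, or 24.0% and 21.7%, and between D-LEC and LN-BEC 8 were called (2 higher in D-LEC, 6 higher in LN-BEC), against 48.0%, or 22.5% and 25.6%. The median absolute log2 fold change of the members was 2.04, 1.83 and 2.35 in the 3 comparisons, beside 0.43, 0.52 and 0.58 over all genes tested. The signed medians were 1.71 toward LN-LEC over LN-BEC, 1.55 toward LN-LEC over D-LEC and -1.29 for D-LEC relative to LN-BEC, while those of all genes were -0.01, 0.03 and -0.05. The libraries of the 2 populations did not overlap for 8, 9 and 8 members, where 45.0%, 49.8% and 56.0% of all genes did not. The 3 comparisons share their libraries pairwise and are not independent of each other.

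**Figure D2:**
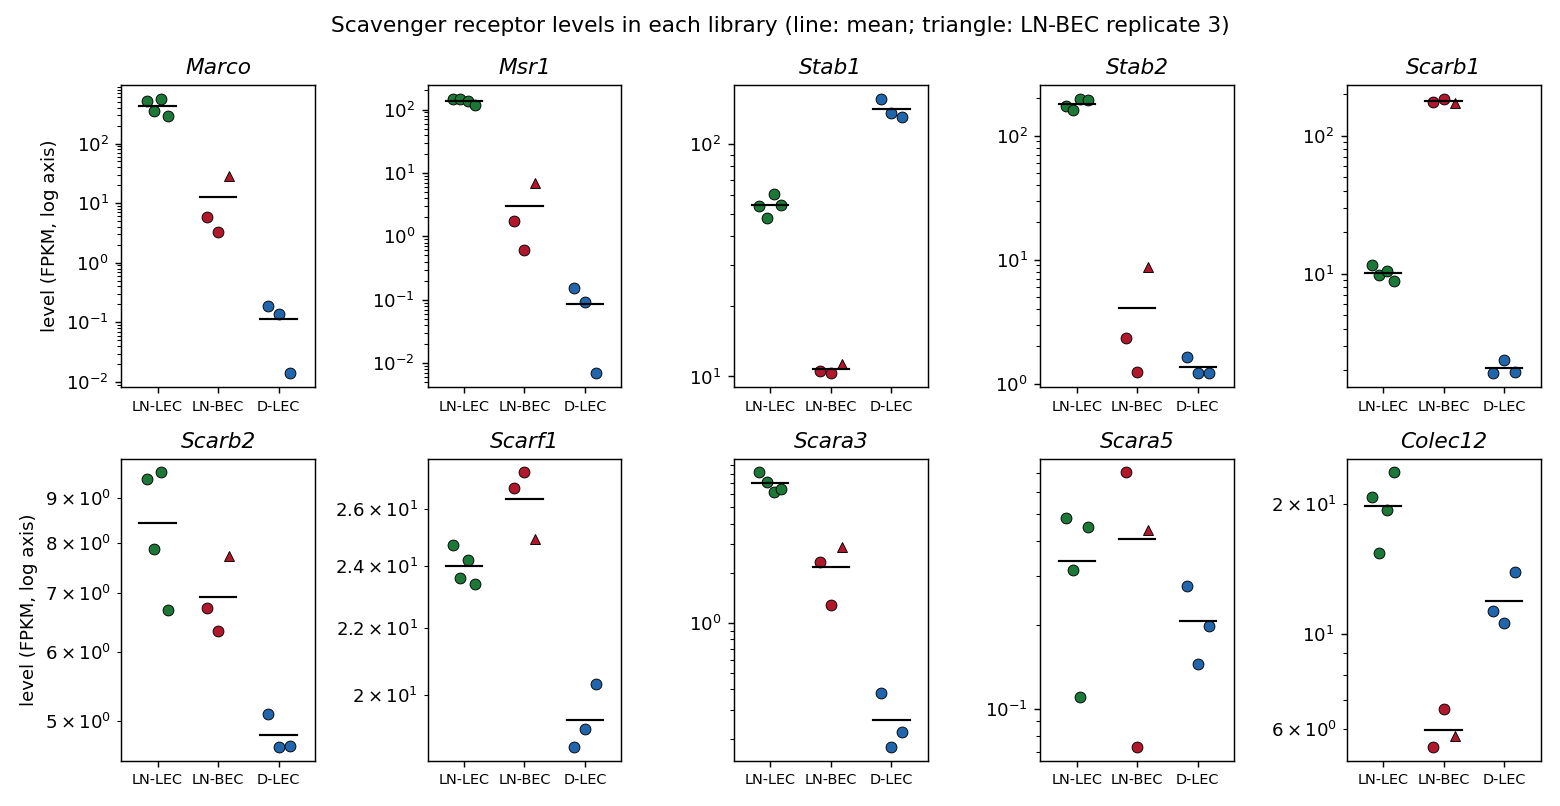
FPKM (log axis, a scale of its own for each gene) of the 10 receptors in each library, by population; points are libraries, lines are means, and the triangle is LN-BEC replicate 3. Marco, Msr1 and Stab2 stand highest in LN-LEC, Stab1 in D-LEC and Scarb1 in LN-BEC, while Scarf1 spans only 18.6 to 27.4 FPKM over all libraries.

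Marco, the class A receptor that binds bacteria and inert particles, was the most abundant of the 10 members in LN-LEC. Its level in LN-LEC replicates 1 to 4 was 511, 347, 566 and 290 FPKM. In LN-BEC replicates 1 and 2 it was 5.85 and 3.28 FPKM and in replicate 3 it was 28.5. The D-LEC libraries held 9, 8 and 1 counts of it, or 0.189, 0.136 and 0.0139 FPKM. All 3 populations were separated, and LN-BEC replicate 3 lay above the other LN-BEC libraries by far more than those differed from each other. Marco RNA of LN-LEC exceeded that of LN-BEC by 5.10 ± 0.88 (log2, SE; edgeR adjusted p = 0.0024), and without LN-BEC replicate 3 by 6.54 ± 0.54 (edgeR adjusted p = 3.0e-05). Against D-LEC the log2 fold change was 12.003 ± 1.310 (edgeR adjusted p = 1.7e-04), a fold that rests on 18 fragments in D-LEC and was 11.37 without D-LEC replicate 3. Marco was also called lower in D-LEC than in LN-BEC, by a log2 fold change of -6.90 ± 1.24 (edgeR adjusted p = 0.0025), which was -5.46 ± 0.63 without LN-BEC replicate 3 (edgeR adjusted p = 2.0e-04) and -6.27 without D-LEC replicate 3.

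Msr1, the type A receptor for acetylated and oxidized lipoproteins, had the pattern closest to that of Marco among all members. It stood at 149, 146, 135 and 118 FPKM in LN-LEC replicates 1 to 4. The LN-BEC values were 1.74 and 0.603 FPKM in replicates 1 and 2 and 6.87 in replicate 3. The D-LEC libraries held 15, 11 and 1 counts, or 0.156, 0.0927 and 0.00692 FPKM. The populations did not overlap, and the LN-LEC libraries were closer to each other than for Marco. The log2 fold change of LN-LEC over LN-BEC was 5.49 ± 0.87 (edgeR adjusted p = 0.0015) with all libraries and 6.86 ± 0.61 without LN-BEC replicate 3 (edgeR adjusted p = 7.0e-05). Over D-LEC it was 10.78 ± 1.21 (edgeR adjusted p = 2.0e-04), with 11.51 when D-LEC replicate 1 and 10.12 when D-LEC replicate 3 was left out. D-LEC were lower than LN-BEC, at a log2 fold change of -5.29 ± 1.17 (edgeR adjusted p = 0.0070) and of -3.93 ± 0.71 without LN-BEC replicate 3 (edgeR adjusted p = 0.0029). That value was -6.02 without D-LEC replicate 1 and -4.63 without D-LEC replicate 3, called in both. The ratio of Marco to Msr1 in FPKM was 3.11 ± 0.868 (SD, n = 4) in LN-LEC and ranged from 2.38 to 4.19 over these libraries.

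Beside the high levels of Marco and Msr1 in LN-LEC, the macrophage markers Emr1, Siglec1 and Csf1r were each below 1 FPKM, and 7 of the 14 macrophage markers were below 1 FPKM in every LN-LEC library. The mean level of Emr1 in LN-LEC was 0.0338 ± 0.0247 FPKM (SD, n = 4), near its 0.0371 ± 0.0300 in LN-BEC (n = 3). Lyz2, a lysozyme of myeloid cells, was at 3.94 ± 0.794 FPKM in LN-LEC and 3.67 ± 1.45 in D-LEC. Some markers of the list did differ. Of the 14, 1 was called higher in LN-LEC and 2 in LN-BEC, 3 higher in LN-LEC and 1 in D-LEC, and 2 higher in D-LEC and 3 in LN-BEC. These 3, 4 and 5 of 14 stand beside 38.2%, 45.8% and 48.0% of all tested genes. In LN-BEC and in D-LEC, 10 of the 14 were below 1 FPKM in every library. At such levels a difference is harder to call, so these counts were not read as a trait of the list. Spic, a transcription factor of red pulp macrophages, was at 6.93 ± 1.36 FPKM in LN-LEC and 4.86 ± 0.423 in LN-BEC, with 4 counts over the D-LEC libraries, and LN-LEC exceeded D-LEC in it by 7.49 ± 0.51 (log2, SE; edgeR adjusted p = 4.7e-08). Timd4, a phosphatidylserine receptor of resident macrophages, was at 1.10 ± 0.548 FPKM in LN-LEC against 0.0854 ± 0.0899 in D-LEC (3.70 ± 0.79; edgeR adjusted p = 0.0022). Siglec1 was called higher in LN-LEC than LN-BEC (edgeR adjusted p = 0.021), from 32 counts over 4 libraries against 0 over 3. Cd14 and Mertk were called lower in LN-LEC than in LN-BEC, at -0.61 ± 0.21 (edgeR adjusted p = 0.036) and -1.18 ± 0.19 (edgeR adjusted p = 2.0e-04). Cd14 was also lower in LN-LEC than in D-LEC (-2.03 ± 0.21; edgeR adjusted p = 2.7e-06), whereas Mertk was higher (0.75 ± 0.20; edgeR adjusted p = 0.0084). Spic, Timd4, Siglec1, Cd14 and Mertk were singled out after their values were seen, and the other macrophage markers named also fall outside the rule for named genes. The part of macrophage RNA in the levels of Marco and Msr1 was not tested.

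Colec12, a collectin-like class A receptor that recognizes carbohydrates and oxidized lipoproteins, was higher in both LEC populations than in LN-BEC. Its gene lies at chr18:9707646-9877993. The LN-LEC libraries held 20.7, 15.4, 19.4 and 23.7 FPKM of it. The D-LEC libraries held 11.3, 10.6 and 13.9 FPKM. The LN-BEC libraries held 5.45 and 6.68 FPKM in replicates 1 and 2 and 5.78 in replicate 3, which here lay between the other libraries. The 3 populations were separated in the order LN-LEC, D-LEC, LN-BEC, and each step was called: 0.73 ± 0.14 for LN-LEC over D-LEC (log2, SE; edgeR adjusted p = 8.5e-04), 0.999 ± 0.153 for D-LEC over LN-BEC (edgeR adjusted p = 1.1e-04) and 1.73 ± 0.15 for LN-LEC over LN-BEC (edgeR adjusted p = 6.0e-07).

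Scara3, a class A protein known from the response to oxidative stress, followed the order LN-LEC, LN-BEC, D-LEC at lower levels. It was at 8.14, 7.13, 6.21 and 6.50 FPKM in LN-LEC. In LN-BEC it was at 2.35 and 1.28 FPKM in replicates 1 and 2 and at 2.89 in replicate 3. In D-LEC it was at 0.379, 0.178 and 0.219 FPKM. No libraries of different populations overlapped. LN-LEC were higher than LN-BEC by 1.69 ± 0.26 (log2, SE; edgeR adjusted p = 2.3e-04; 1.94 ± 0.26 without LN-BEC replicate 3) and higher than D-LEC by 4.79 ± 0.33 (edgeR adjusted p = 2.4e-07). D-LEC were below LN-BEC, at -3.10 ± 0.33 (edgeR adjusted p = 1.0e-05).

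Scara5, a ferritin receptor, was the lowest member in the lymph node populations and was called in no comparison. Its values were 0.485, 0.314, 0.110 and 0.449 FPKM in LN-LEC. They were 0.706 and 0.0727 FPKM in LN-BEC replicates 1 and 2 and 0.440 in replicate 3. The D-LEC libraries held 0.275, 0.145 and 0.198 FPKM. All 3 populations overlapped, and the libraries of LN-BEC alone spanned the full range. The log2 fold changes were -0.25 ± 0.64 for LN-LEC over LN-BEC (edgeR adjusted p = 0.80), 0.73 ± 0.67 for LN-LEC over D-LEC (edgeR adjusted p = 0.40) and -0.98 ± 0.71 for D-LEC over LN-BEC (edgeR adjusted p = 0.28). The sign of the first turned without LN-BEC replicate 1 (0.44) and without LN-LEC replicate 3 (0.04). The last was -0.29 without LN-BEC replicate 1 and -1.48 without LN-BEC replicate 2, where it was called (edgeR adjusted p = 0.031). By the distance between log2 profiles over the 10 libraries, the genes nearest to Scara5 were Dpt, Lum and Bnc2, of which Dpt and Lum code for matrix proteins made by fibroblasts. Lum was at 7.33, 4.59, 2.20 and 6.49 FPKM in LN-LEC and at 9.49, 1.60 and 7.49 in LN-BEC, so it was lowest in the same libraries as Scara5. The part of fibroblast RNA in the level of Scara5 was not tested.

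The 2 stabilins had opposite balances in the LEC of node and diaphragm. Stab1, which binds SPARC and modified lipoproteins and sorts cargo to lysosomes, was at 156, 135 and 130 FPKM in D-LEC. It was at 53.9, 48.1, 61.0 and 54.8 FPKM in LN-LEC. It was at 10.6 and 10.3 FPKM in LN-BEC replicates 1 and 2 and at 11.4 in replicate 3. The populations were separated, with LN-BEC replicate 3 close to the other LN-BEC libraries. Stab1 was higher in D-LEC than in LN-LEC, with a log2 fold change of LN-LEC over D-LEC of -1.37 ± 0.10 (SE; edgeR adjusted p = 7.2e-08). Both LEC populations exceeded LN-BEC, LN-LEC by 2.34 ± 0.11 (edgeR adjusted p = 1.2e-09) and D-LEC by 3.71 ± 0.12 (edgeR adjusted p = 2.7e-11).

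Stab2, the hyaluronan receptor for endocytosis of liver and lymphatic sinuses, went the other way between the LEC populations. It was at 172, 160, 199 and 193 FPKM in LN-LEC. In D-LEC it was at 1.63, 1.21 and 1.22 FPKM. In LN-BEC it was at 2.35 and 1.25 FPKM in replicates 1 and 2 and at 8.71 in replicate 3. Every LN-LEC library lay far above the rest, whereas LN-BEC and D-LEC overlapped. LN-LEC exceeded D-LEC by 7.06 ± 0.79 (log2, SE; edgeR adjusted p = 1.8e-04) and LN-BEC by 5.47 ± 0.73 (edgeR adjusted p = 5.4e-04), the latter 6.64 ± 0.31 without LN-BEC replicate 3 (edgeR adjusted p = 2.3e-08). Between D-LEC and LN-BEC the log2 fold change was -1.60 ± 0.64 and was not called (edgeR adjusted p = 0.077). That value turned on single LN-BEC libraries: it was -0.42 ± 0.23 without replicate 3 (edgeR adjusted p = 0.17) and -2.02 without replicate 2, where it was called (edgeR adjusted p = 0.011). In FPKM, Stab2 was 3.33 ± 0.143 times as high as Stab1 in LN-LEC (SD, n = 4; range 3.20 to 3.53), while in D-LEC Stab1 was 105 ± 8.06 times as high as Stab2 (n = 3; range 95.8 to 112). The ratio thus lay in a narrow range within each LEC population and on opposite sides of 1.

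Scarb1, the receptor through which cells take cholesteryl esters from high density lipoprotein, was the most abundant of the 10 members in LN-BEC. Its level was 174 and 185 FPKM in LN-BEC replicates 1 and 2 and 172 in replicate 3. It was 11.6, 9.85, 10.5 and 8.78 FPKM in LN-LEC. It was 1.89, 2.36 and 1.94 FPKM in D-LEC. The 3 populations were far apart, and the LN-BEC libraries, replicate 3 included, agreed within a CV of 4.15%. Scarb1 was lower in LN-LEC than in LN-BEC, at -4.12 ± 0.11 (log2, SE; edgeR adjusted p = 1.4e-11), and lower still in D-LEC, at -6.42 ± 0.14 relative to LN-BEC (edgeR adjusted p = 4.8e-12). LN-LEC exceeded D-LEC by 2.30 ± 0.12 (edgeR adjusted p = 2.2e-09). In the markers of blood endothelium, the 6 genes of that list summed to 23.9 to 42.9 FPKM in LN-LEC, 1460 to 1511 for LN-BEC and 149 to 203 for D-LEC. Between the LEC populations, 2 of these 6 markers were called higher in LN-LEC and 3 in D-LEC, beside 24.0% and 21.7% of all tested genes. For LN-LEC over D-LEC, Nrp1 was at 2.69 ± 0.33 and Flt1 at 1.69 ± 0.25. Emcn was at -3.27 ± 0.20, Cd34 at -1.36 ± 0.23 and Notch4 at -1.02 ± 0.20, so the sum hides opposite directions. The part of blood endothelial RNA in the Scarb1 levels was not tested.

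Scarb2 (LIMP-2), a membrane protein of lysosomes, differed little. It was at 9.47, 7.87, 9.62 and 6.70 FPKM in LN-LEC. It was at 6.74 and 6.34 FPKM in LN-BEC replicates 1 and 2 and at 7.73 in replicate 3. It was at 5.09, 4.66 and 4.68 FPKM in D-LEC. LN-LEC and LN-BEC overlapped, and the D-LEC libraries lay below both. D-LEC were lower than LN-LEC, with LN-LEC over D-LEC at 0.80 ± 0.14 (log2, SE; edgeR adjusted p = 3.0e-04), and lower than LN-BEC, at -0.53 ± 0.15 (edgeR adjusted p = 0.0088). LN-LEC over LN-BEC was 0.28 ± 0.14 and not called (edgeR adjusted p = 0.13), though without LN-LEC replicate 4 it was 0.38 and called (edgeR adjusted p = 0.030).

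Scarf1, an endothelial receptor for modified lipoproteins and for dying cells coated with complement, was the most even member. Its level was 24.7, 23.6, 24.2 and 23.4 FPKM in LN-LEC. It was 26.8 and 27.4 FPKM in LN-BEC replicates 1 and 2 and 24.9 in replicate 3. It was 18.6, 19.1 and 20.3 FPKM in D-LEC. The D-LEC libraries lay below all others, and LN-BEC replicate 3 stood just above the highest LN-LEC library. The difference of LN-LEC from LN-BEC, -0.14 ± 0.07 (log2, SE), was not called (edgeR adjusted p = 0.17), although the libraries did not overlap. D-LEC were lower than LN-LEC, with LN-LEC over D-LEC at 0.31 ± 0.08 (edgeR adjusted p = 0.0038), and lower than LN-BEC, at -0.45 ± 0.08 (edgeR adjusted p = 3.7e-04).

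**Figure D3:**
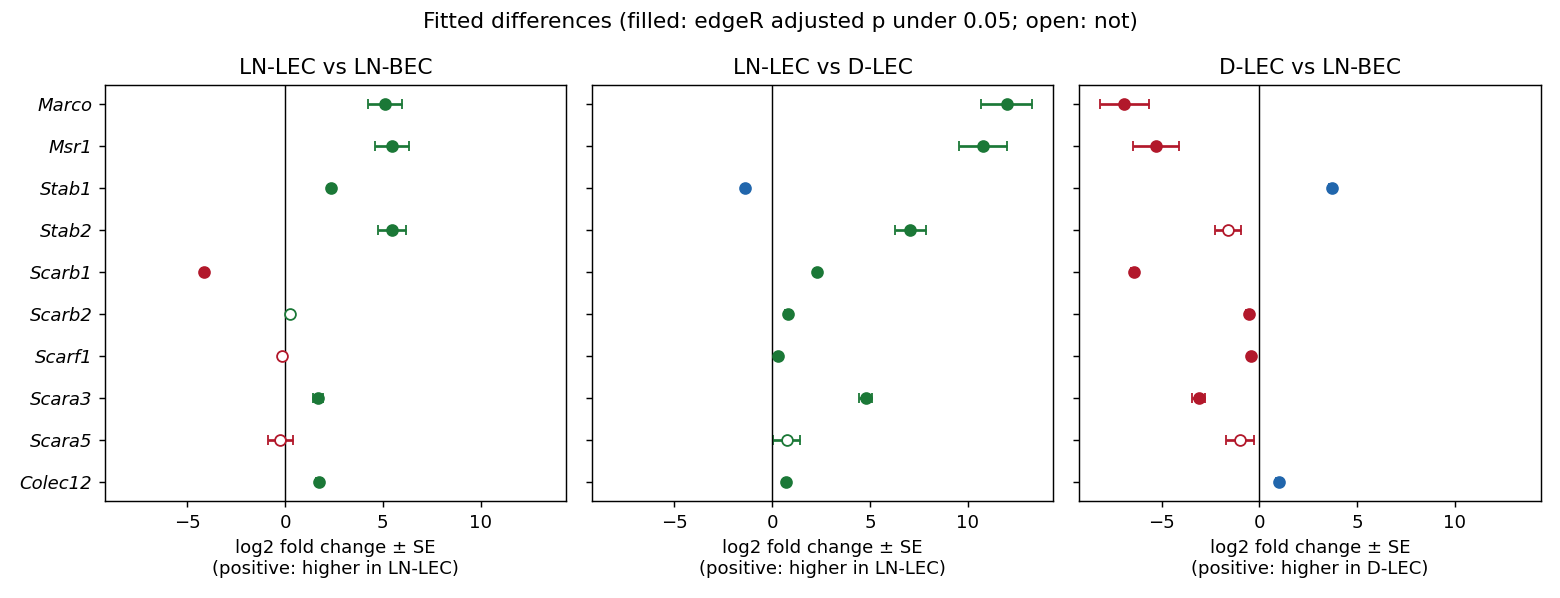
Log2 fold changes with SE of the 10 receptors in the 3 comparisons (edgeR), the sign read as under each axis; filled points passed an adjusted p of 0.05 and colours give the higher population. Marco reaches 12.003 for LN-LEC over D-LEC, Scarb1 lies at -4.12 and -6.42 relative to LN-BEC, and Scara5 is open in all 3 panels.

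Among the LN-BEC libraries, Marco, Msr1 and Stab2 were highest in replicate 3, as the LEC markers were. As a percent of the LN-LEC mean, Marco was at 1.37% and 0.766% in LN-BEC replicates 1 and 2 and at 6.65% in replicate 3. Msr1 was at 1.27% and 0.440%, and at 5.01% in replicate 3. Stab2 was at 1.30% and 0.691%, and at 4.81% in replicate 3. Lyve1, the hyaluronan receptor of lymphatic endothelium, was at 1.43% and 1.05% in replicates 1 and 2 and at 5.82% in replicate 3. The 3 receptors were below the lowest of the 6 LEC markers in replicate 1 (1.397%) and in replicate 2 (0.935%), and within the range of the markers, 4.25% to 16.4%, in replicate 3. The top of that range was Flt4, which was also at 14.4% and 11.8% in replicates 1 and 2. The next highest marker in replicate 3 was Mmrn1 at 6.58%, just below Marco. In the other members replicate 3 did not stand apart to this degree: its value was 6.24, 5.86 and 4.84 times the mean of replicates 1 and 2 for Marco, Msr1 and Stab2, but 1.09 times for Stab1, 0.95 times for Colec12, 0.96 times for Scarb1 and 1.59 times for Scara3. Stab1 was at 18.9% to 20.9% of the LN-LEC mean in the 3 LN-BEC libraries, Colec12 at 27.5% to 33.7% and Scara3 at 18.3% to 41.3%. For the LEC markers the same ratio of replicate 3 to the other 2 was 1.26 to 4.69, below the ratios of Marco, Msr1 and Stab2. The part of LN-LEC RNA in the LN-BEC levels of Marco, Msr1 and Stab2, and so in their differences between D-LEC and LN-BEC, was not tested. Without replicate 3 the same numbers of members, 7, 9 and 8, were called in the 3 comparisons.

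**Figure D4:**
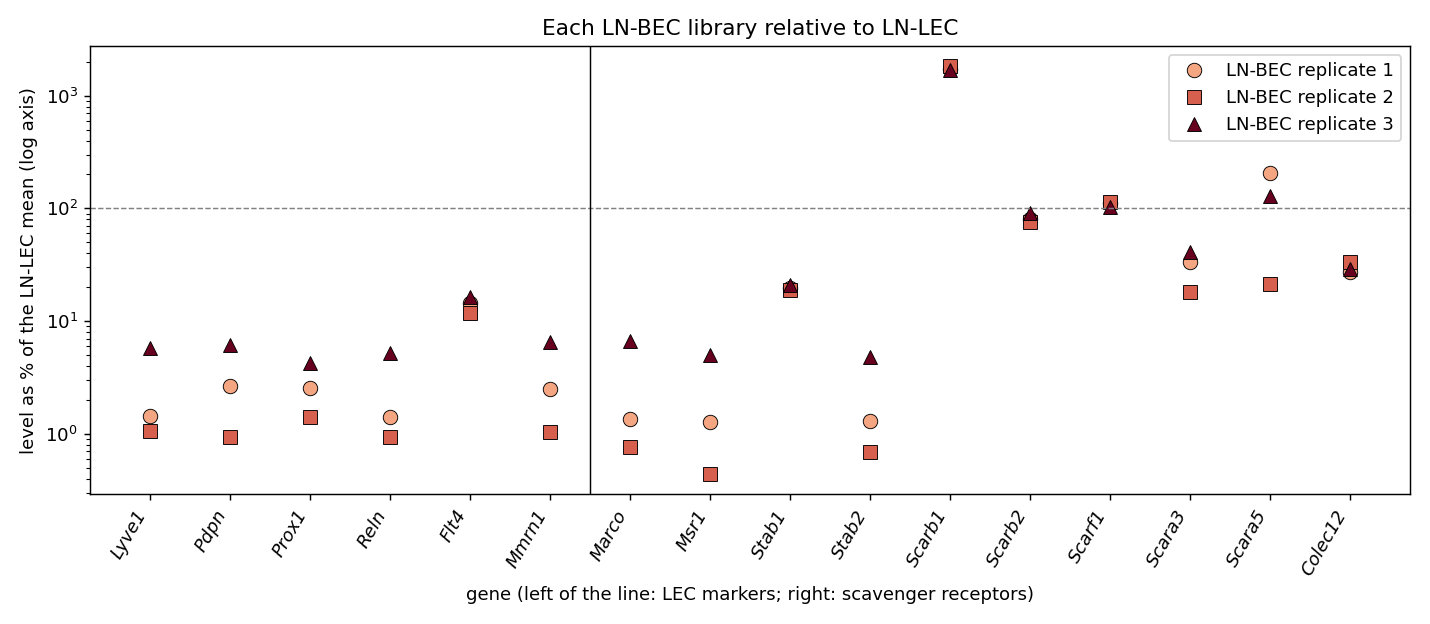
Level in each LN-BEC library as a percent of the LN-LEC mean (log axis), for the 6 LEC markers left of the line and the 10 receptors right of it; the dashed line is 100%. Marco, Msr1 and Stab2 lie between 0.440% and 6.65%, with replicate 3 highest, while Stab1, Scara3 and Colec12 lie between 18.3% and 41.3%.

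Other scavenger receptor genes were counted in the same comparisons. Of a list of 14 such genes, 5 were called higher in LN-LEC and 1 in LN-BEC between these populations, 6 were called higher in LN-LEC and 3 in D-LEC between those, and 5 were called higher in D-LEC and 4 in LN-BEC. These 6, 9 and 9 of 14 stand beside 38.2%, 45.8% and 48.0% of all tested genes. Their median log2 fold changes were 0.75, 0.49 and 0.34 in the 3 comparisons, beside -0.01, 0.03 and -0.05 over all genes. Mrc1, the mannose receptor, was shared by the LEC populations, at 41.7 ± 9.03 FPKM in LN-LEC (SD, n = 4) and 54.7 ± 1.99 in D-LEC (n = 3) against 0.785 ± 0.684 in LN-BEC, or 0.395 without replicate 3. Both LEC populations exceeded LN-BEC in it, LN-LEC by 5.75 ± 0.58 (log2, SE; edgeR adjusted p = 8.8e-05) and D-LEC by 6.15 ± 0.60 (edgeR adjusted p = 5.8e-05), or by 6.71 and 7.10 without LN-BEC replicate 3. Like Marco, it was highest in replicate 3 among the LN-BEC libraries, at 3.76% of the LN-LEC mean against 1.19% and 0.708%. Cxcl16, a membrane-bound chemokine that also takes up oxidized lipoprotein, was at 57.2 ± 7.28 FPKM in LN-LEC, with 6.96 ± 1.70 for LN-BEC and 1.23 ± 0.105 for D-LEC. Cxcl16 was above LN-BEC in LN-LEC by 3.04 ± 0.16 (edgeR adjusted p = 1.0e-08) and above D-LEC by 5.53 ± 0.19 (edgeR adjusted p = 1.4e-10), and D-LEC lay under LN-BEC at -2.49 ± 0.18 (edgeR adjusted p = 1.3e-07).

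Cd36 and Cd44 were genes of both lymph node populations. Cd36, the class B receptor for fatty acids and thrombospondin, was at 257 ± 47.3 FPKM in LN-LEC and 366 ± 139 in LN-BEC, or 291 without replicate 3, but at 10.2 ± 1.45 in D-LEC. Its log2 fold change was 4.65 ± 0.29 for LN-LEC over D-LEC (edgeR adjusted p = 3.2e-07) and -5.16 ± 0.30 for D-LEC over LN-BEC (edgeR adjusted p = 1.6e-07). Cd44, a hyaluronan receptor, was at 16.003 ± 3.875 FPKM in LN-LEC, with 10.998 ± 2.980 for LN-BEC and 0.755 ± 0.305 for D-LEC, with log2 fold changes of 4.43 ± 0.37 for LN-LEC over D-LEC (edgeR adjusted p = 1.2e-05) and -3.89 ± 0.37 for D-LEC over LN-BEC (edgeR adjusted p = 2.6e-05). Olr1, the lectin-like receptor for oxidized lipoprotein, was below 1 FPKM throughout, at 0.467 ± 0.215 in LN-LEC, with 0.242 ± 0.128 for LN-BEC and 0.0248 ± 0.0195 for D-LEC. LN-LEC and LN-BEC both exceeded D-LEC in Olr1, at 4.18 ± 0.67 for LN-LEC over D-LEC (edgeR adjusted p = 1.8e-04) and -3.22 ± 0.70 for D-LEC over LN-BEC (edgeR adjusted p = 0.0018), and without D-LEC replicate 2 these were 4.97 and -4.01.

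Lrp2 (megalin), an endocytic receptor of the lipoprotein receptor family, was at 0.873 ± 0.190 FPKM in LN-LEC and 0.0765 ± 0.00978 in LN-BEC, a log2 difference of 3.51 ± 0.43 (edgeR adjusted p = 5.4e-05). Megf10, an engulfment receptor also known from muscle satellite cells, had 232 counts over the D-LEC libraries against 6 over LN-LEC and 4 over LN-BEC. It was called higher in D-LEC than in LN-LEC (-5.59 ± 0.79 for LN-LEC over D-LEC; edgeR adjusted p = 5.8e-05) and than in LN-BEC (5.89 ± 0.89; edgeR adjusted p = 1.0e-04). Without D-LEC replicate 1 these were -4.94 and 5.25, the first was -6.24 without LN-LEC replicate 2 and the second 7.18 without LN-BEC replicate 3, all called. It was found in the libraries that also held the skeletal muscle markers, whose part in it was not tested. Cd163, the hemoglobin receptor of macrophages, was called higher in D-LEC than in LN-LEC (edgeR adjusted p = 0.042) from 13 counts against 2, a ratio of 8.63 with an exact 95% interval of 1.95 to 78.8 that covers counting error only. That call was lost without any 1 of D-LEC replicates 2 and 3, LN-LEC replicates 1, 2 and 3 and LN-BEC replicate 1 (edgeR adjusted p from 0.051 to 0.17), and without LN-LEC replicate 4 the log2 fold change moved from -2.85 to -5.03.

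**Figure D5:**
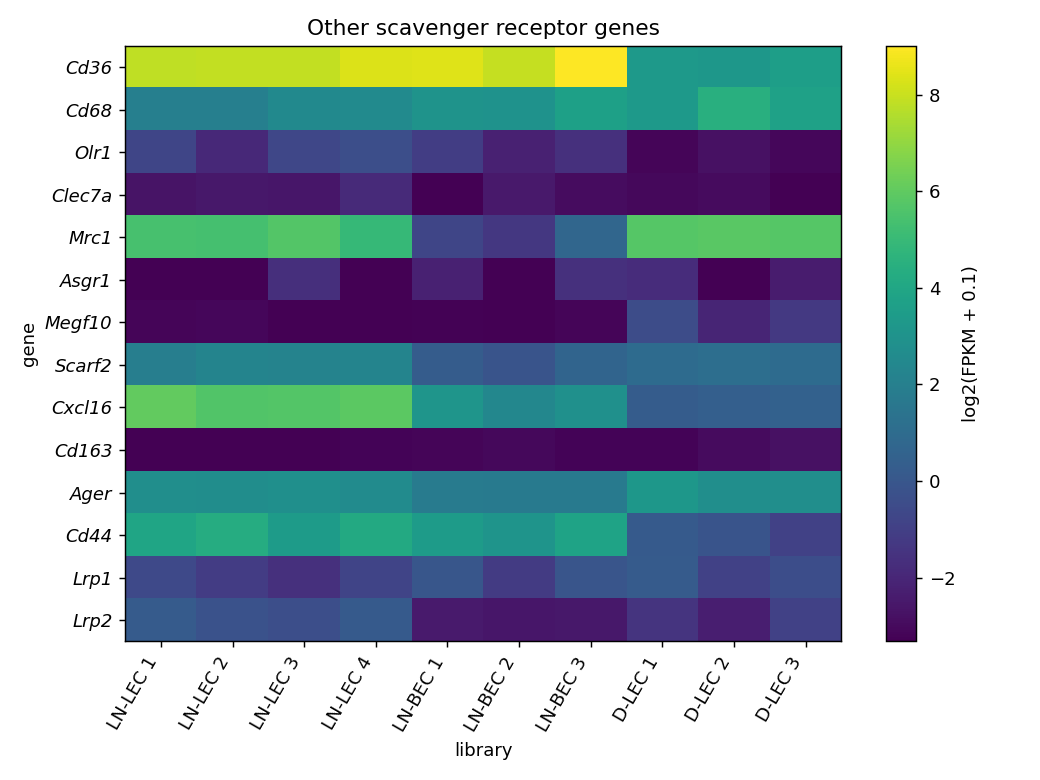
Level of the 14 other scavenger receptor genes in each library, coloured by log2(FPKM + 0.1). Mrc1 is high in both LEC populations, Cd36 and Cd44 in both lymph node populations and Cxcl16 in LN-LEC.

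Ligands, enzymes and partners of the receptors were counted over a list of 22 genes. Of these, 9 were called higher in LN-LEC and 6 in LN-BEC, 11 higher in LN-LEC and 3 in D-LEC, and 4 higher in D-LEC and 7 in LN-BEC. These 15, 14 and 11 of 22 stand beside 38.2%, 45.8% and 48.0% of all tested genes, and the last was near that share. Among the lipid genes around Scarb1, Lipg, the endothelial lipase that acts on high density lipoprotein, had the same order as Scarb1, with 6.68 ± 0.615 FPKM in LN-BEC (SD, n = 3), 0.228 ± 0.142 in LN-LEC (n = 4) and 0.0352 ± 0.0389 in D-LEC (n = 3). Its log2 fold change was -4.79 ± 0.41 for LN-LEC over LN-BEC (edgeR adjusted p = 4.8e-06), -7.52 ± 0.59 for D-LEC over LN-BEC (edgeR adjusted p = 1.7e-06) and 2.73 ± 0.67 for LN-LEC over D-LEC (edgeR adjusted p = 0.0066). Without D-LEC replicate 2, the values against D-LEC were -8.87 relative to LN-BEC and 4.09 for LN-LEC, both called. Abcg1, which exports cholesterol to high density lipoprotein, was at 29.9 ± 0.800 FPKM in LN-BEC and 27.8 ± 0.765 in D-LEC but at 6.07 ± 0.868 in LN-LEC, lower than LN-BEC by a log2 fold change of -2.30 ± 0.10 (edgeR adjusted p = 9.6e-10) and than D-LEC by -2.19 ± 0.10 (edgeR adjusted p = 1.0e-09).

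The list also held partners of the stabilins. Sparc, a matrix protein that Stab1 binds, was at 1373 ± 74.5 FPKM in LN-BEC, 683 ± 23.7 in LN-LEC and 59.6 ± 24.7 in D-LEC. LN-LEC exceeded D-LEC in Sparc by 3.52 ± 0.25 (log2, SE; edgeR adjusted p = 7.3e-07), and D-LEC were below LN-BEC at -4.53 ± 0.27 (edgeR adjusted p = 1.3e-07). Gulp1, an engulfment adaptor that binds the tail of Stab2, was at 8.40 ± 1.22 FPKM in LN-BEC, 1.13 ± 0.249 in D-LEC and 0.537 ± 0.0955 in LN-LEC. It was called lower than in LN-BEC both in LN-LEC (-3.98 ± 0.19; edgeR adjusted p = 1.6e-09) and in D-LEC (-2.89 ± 0.20; edgeR adjusted p = 3.3e-08). Hspg2 (perlecan), a heparan sulfate proteoglycan of basement membrane, was at 19.2 ± 1.13 FPKM in LN-BEC and 4.34 ± 0.614 in D-LEC, a log2 fold change of -2.15 ± 0.12 for D-LEC over LN-BEC (edgeR adjusted p = 3.1e-09).

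For each member the most similar genes were found among the other 15327 tested genes by the Euclidean distance of mean-centred log2 CPM over the 10 libraries. Marco and Msr1 were neighbours of each other, at a distance of 1.998, where the median distance of all genes from Marco was 15.7. Cyp1b1, a cytochrome that oxidizes steroids and fatty acids, stood beside both, at 491 ± 29.1 FPKM in LN-LEC (SD, n = 4), with 11.3 ± 10.5 for LN-BEC (n = 3) and 0.427 ± 0.382 for D-LEC (n = 3). Its LN-BEC level was 8.10 and 2.73 FPKM in replicates 1 and 2 and 23.0 in replicate 3. Bmp2, a growth factor, came next for Marco and Mmp9, a gelatinase, for Msr1. The genes nearest to Stab2 were Creg2, Tectb and Tmem132e, of which Creg2 was at 53.7 ± 4.67 FPKM in LN-LEC. Nearest to Stab1 were Mical2, Olfm1 and Sord, and Sord, the sorbitol dehydrogenase, was at 63.6 ± 6.21 FPKM in D-LEC, 20.0 ± 3.75 in LN-LEC and 4.41 ± 0.632 in LN-BEC. Nearest to Scarb1 were Syk, Serpinb8 and Pyhin1, all at lower levels: Syk, a kinase of immune receptor signalling, was at 2.95 ± 0.547 FPKM in LN-BEC and 0.152 ± 0.0449 in LN-LEC. The neighbours of Scara3 were Ptgir, Sostdc1 and Dock10, and those of Colec12 included Tgm2 and Cd63, with Tgm2, a transglutaminase, at 448 ± 50.7 FPKM in LN-LEC, 252 ± 13.4 in D-LEC and 143 ± 15.9 in LN-BEC. Scarb2 and Scarf1, the members with the flattest profiles, were nearest to Ptdss2, Edf1 and Edem2 and to Nsa2, Csrp1 and Rps20. The libraries share their populations, so these distances describe likeness over 3 groups and carry no test.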

How the data were processed

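Reads were trimmed (Fastx-trimmer) and mapped to mm9 (STAR) by the authors, and fragments were counted on exons per gene symbol with featureCounts 1.4.4. Both mates had to map, strand was ignored and pairs with several positions were skipped. The counts are deposited without normalization, beside the exon length of each symbol. Of 23284 symbols, 3817 predicted or clone symbols were left out, and 15328 were tested, those whose normalized counts averaged at least 1 in some population. The test was the quasi-likelihood F test of edgeR 4.0.16 (R 4.3.3) with TMM factors and robust moderation, on 1 model of the 3 population means over the 10 libraries, with Benjamini-Hochberg adjustment within each comparison, and it was checked on simulated data. SEs were derived from the log2 fold change and its F. FPKM was computed from counts, TMM-scaled library totals of the tested genes and exon length. DESeq2 1.42.0 and other filters, scalings and library sets were alternatives. Totals of 22429940 to 48906070 counts set the depth, and precision rests on the spread between libraries. Replicates were numbered in accession order. Gene models and promoters were read from the mm9 genome and its annotation, where 214 of 218 introns of the members began with GT and ended with AG. Members and lists were chosen with earlier results of these data known. By rule, all members are named, and from the receptor, ligand and endosome lists each called gene of at least 4-fold, at most 6 per list and comparison. A few genes that the rule would name are not reported here.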

Additional observations from a re-analysis of the deposited data

How the results depend on the processing

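No paired analysis was possible because the labels and columns carry no replicate numbers that tie libraries of different populations. Over 19 alternative settings, 567 member differences were recomputed: 558 kept direction and call, 7 became called, 2 changed sign and 0 lost their call. The sign changes were those of Scara5 between LN-LEC and LN-BEC, which ranged from -0.75 to 0.44 with no call under any setting. The newly called values concerned Stab2 and Scara5 between D-LEC and LN-BEC and Scarb2 between LN-LEC and LN-BEC. Stab2 was called with DESeq2 (adjusted p = 0.026) and without robust moderation (edgeR adjusted p = 0.023). Scarb2 was also called without LN-BEC replicate 3 and LN-LEC replicate 4 together (0.46, edgeR adjusted p = 0.017). Leaving out each library in turn gave 7 to 8, 9 and 8 to 10 members called in the 3 comparisons. DESeq2 gave no adjusted p for Msr1, which its outlier rule set aside; without that rule, an alternative chosen after seeing the data, Msr1 was called in all 3 comparisons. Over all settings Marco ranged from 4.66 to 6.71 (log2) for LN-LEC over LN-BEC, from 11.37 to 12.55 for LN-LEC over D-LEC and from -7.45 to -5.44 for D-LEC over LN-BEC. Over the 32 differences of other named genes, 607 recomputed values held 9 lost calls, all of Cd163 (with DESeq2, adjusted p = 0.11), and 0 sign changes. Without TMM scaling, and with library totals over all symbols in place of the tested genes, some levels moved. The LN-BEC mean FPKM of Stab1, Scarb1, Scarb2, Scarf1 and Colec12 then fell by more than its SD. The parts of the scaling and of the totals in this were not separated. Counts of called genes stayed within 1.5 times the reported value. Among the members, counts were lowest for Marco, Msr1 and Scara3 in D-LEC. The 1 count of Marco and the 1 count of Msr1 were both in D-LEC replicate 3, the deepest D-LEC library with 35811852 counts.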

Other observations

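The machinery that carries receptors inward was counted over 21 genes of clathrin coats, adaptors and endosomes. Of these, 8 were called higher in LN-LEC and 2 in LN-BEC, 3 higher in LN-LEC and 7 in D-LEC, and 8 higher in D-LEC and 1 in LN-BEC. These 10, 10 and 9 of 21 were near the 38.2%, 45.8% and 48.0% of all tested genes that were called in either direction. By direction, the shares of all genes were 19.8% and 18.4%, 24.0% and 21.7%, and 22.5% and 25.6%. The splits of 8 and 2, 3 and 7, and 8 and 1 each rest on few genes, and their unevenness was not tested. The median log2 fold changes, 0.20, 0.15 and 0.17, were small beside those of the receptors. Dab2, a clathrin adaptor of lipoprotein receptors, was the only gene of this list called at 4-fold or more, at 175 ± 69.8 FPKM in LN-LEC (SD, n = 4), with 43.3 ± 5.01 for LN-BEC (n = 3) and 92.3 ± 12.95 for D-LEC (n = 3). Dab2 in LN-LEC was above LN-BEC by 2.01 ± 0.27 (log2, SE; edgeR adjusted p = 2.3e-04). Clathrin light chain a (Clta) exceeded its LN-BEC level in LN-LEC by 1.17 ± 0.10 (edgeR adjusted p = 6.3e-07) and its D-LEC level by 1.12 ± 0.10 (edgeR adjusted p = 8.7e-07), whereas light chain b (Cltb) was lower in LN-LEC than in both, at -0.75 ± 0.10 (edgeR adjusted p = 2.4e-05) and -0.61 ± 0.10 (edgeR adjusted p = 1.5e-04). Clta and Cltb fall outside the rule for named genes and were chosen after their values were seen.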
